A study of Mus musculus with 4 samples.

Results

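Malat1, Neat1, Miat, Gdap10, Snhg11, Firre, Ftx and Cdr1 are noncoding RNAs, or RNAs with noncoding features, that stood far lower in ribosome-bound RNA than in total RNA of mouse cortex. These 8 genes were chosen by their symbols among the 32531 gene names of the count tables, and the choice was made on their low values in immunopurified RNA against total RNA. All 8 were among the 16600 genes that passed the filter on low counts. Their difference between the groups is therefore given as a description, without a test.

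The samples came from cerebral cortex of adult mice of the Cbln1-EGFP/Rpl10a line NIDA030, in which the ribosomal protein Rpl10a carries an EGFP tag in cells that use Cbln1 regulatory sequence. In translating ribosome affinity purification, beads carrying antibodies to EGFP pull down the tagged polysomes, and the RNA they hold is sequenced. The immunopurified group (IP) had 2 libraries, numbered 2 and 4, and the total RNA group (input) had 2 libraries with the same numbers, all from this genotype, tissue and age class. An IP library holds ribosome-bound RNA of tagged cells and an input library all RNA of all cells, so less binding to ribosomes and a lower level in the tagged cells cannot be told apart. Whether the libraries of a group stem from different animals is not in the labels, and p-values therefore reflect only how far these libraries spread. Both IP libraries were labelled as lane 1 and both input libraries as lane 2, and effects of lane and of group cannot be told apart.

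Long noncoding RNAs are transcribed and often spliced and polyadenylated like messenger RNAs, yet many stay in the nucleus, where ribosomes do not translate. Malat1 lies in nuclear speckles, domains rich in splicing factors, and Neat1 is the scaffold of paraspeckles. Miat, also called Gomafu, forms its own spots in neuronal nuclei, Firre and Ftx are made from the X chromosome and act in the nucleus, and the Cdr1 locus is best known for a circular RNA of the opposite strand that binds microRNA miR-7. The location of these RNAs in the cell was not measured here.

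Coordinates and transcripts are those of GENCODE vM21 on GRCm38, which is the mm10 assembly. Malat1 (chr19:5795690-5802672, minus strand) and Neat1 (chr19:5824708-5845478, minus strand) are neighbours with 22035 bases between them. Both are known for a 3′ end in which U-rich stretches pair with an A-rich tract in a triple helix, in place of a poly(A) tail. The 2 stretches are shown because this shared element is the clearest likeness between the most abundant and one of the least abundant of the 8 RNAs. Capitals mark TTTCTTTT, TTTTGCTTT and AAAGCAAAA, motifs chosen with knowledge of these RNAs and searched on the transcript strand in the longest transcript of each gene. The Malat1 stretch is chr19:5795920-5796075 and the Neat1 stretch chr19:5824708-5824807, both read on the minus strand.
Malat1: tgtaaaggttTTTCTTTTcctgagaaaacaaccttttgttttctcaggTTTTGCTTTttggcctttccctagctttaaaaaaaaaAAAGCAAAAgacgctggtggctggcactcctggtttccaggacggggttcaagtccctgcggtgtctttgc
Neat1: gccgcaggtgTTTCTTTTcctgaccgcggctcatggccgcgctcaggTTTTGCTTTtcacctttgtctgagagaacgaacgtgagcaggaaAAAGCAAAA
Singly, TTTCTTTT was held by 17.3%, TTTTGCTTT by 3.80% and AAAGCAAAA by 3.93% of 48558 transcripts of at least 200 bases. In this order, each within 80 bases of the one before, they were held by 2 of these transcripts, Malat1 and Neat1. The annotated Neat1 transcript ends with the A-rich tract, whereas 292 bases follow the tract in the annotated Malat1 transcript, among them the precursor of the tRNA-like mascRNA.

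Miat (chr5:112213228-112229395, minus strand) is known for repeats close to the intron branch point sequence, which bind the splicing factor SF1. Its longest transcript of 9163 bases held 11 copies of ACTAAC and 6 of the longer TACTAAC, which contains it. The shorter motif occurred in 20.2% of all transcripts and 10 transcripts, Miat among them, held as many copies. The longer one occurred in 5.16%, and 3 transcripts held as many. These counts do not allow for length. In copies per kb, 2.22% of transcripts, Miat included, were at least as dense as Miat in ACTAAC, and 0.943% in TACTAAC. The stretch that holds the first 4 copies of ACTAAC, chr5:112217309-112217459 on the minus strand, is shown with these copies in capitals because this repeat sets Miat apart from the other 7 RNAs, which held at most 4 copies each.
Miat: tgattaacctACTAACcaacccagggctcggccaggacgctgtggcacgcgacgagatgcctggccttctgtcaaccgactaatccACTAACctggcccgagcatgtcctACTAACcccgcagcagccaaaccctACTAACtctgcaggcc

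Cdr1 (chrX:61184005-61185558, minus strand) is annotated as a protein-coding gene of 1 exon and 1554 bases, of which 1551 are coding. The RNA of the opposite strand is known as a circle, Cdr1as, that binds miR-7 and is cut with the help of miR-671. The microRNAs are shown first, from RefSeq on GRCm38.p6, with the seed (bases 2 to 8) in capitals. Next, in DNA letters with the seed match in capitals, come 4 distinct windows of the opposite strand. They were taken by most bases paired with miR-7a, and ties by lowest position. Sites 1 to 4 paired with 15, 14, 13 and 13 bases, and many further windows also had 13.
mmu-miR-7a-5p: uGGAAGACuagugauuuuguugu
mmu-miR-7b-5p: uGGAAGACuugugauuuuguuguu
mmu-miR-671-5p: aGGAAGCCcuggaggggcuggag
Cdr1 antisense site 1: tcctgaaaatccaccGTCTTCCa
Cdr1 antisense site 2: ttcccaaaaatccaaGTCTTCCc
Cdr1 antisense site 3: ttcccaaaagtccatGTCTTCCc
Cdr1 antisense site 4: ttcccagaaatccaaGTCTTCCg
miR-671 site: ttccagcatctccagGGCTTCCa
The miR-7 windows lie on the plus strand at chrX:61184032-61184054, chrX:61184140-61184162, chrX:61184194-61184216 and chrX:61184302-61184324, and the miR-671 site at chrX:61186029-61186051. The miR-7a and miR-7b seeds are the same, and miR-671-5p has a seed of its own. Read against the strand of Cdr1, its 1554 bases held 79 copies of GTCTTCC, the match to the miR-7 seed, or 50.8 per kb. Neighbouring copies began 18 to 72 bases apart, with a median of 18. Of 48558 transcripts, 22.5% held the reverse complement GGAAGAC at all, and none other than Cdr1 held as many copies. With the seed bases counted in, 78 full windows paired with 11 to 15 of the 23 bases of miR-7a, with a median of 13. The miR-671 site, its seed match included, paired with 19 of 23 bases. The plus-strand exon of the noncoding gene C230004F18Rik that covers Cdr1 (chrX:61183248-61186174, 2927 bases) held 123 copies of GTCTTCC.

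**Figure D1:**
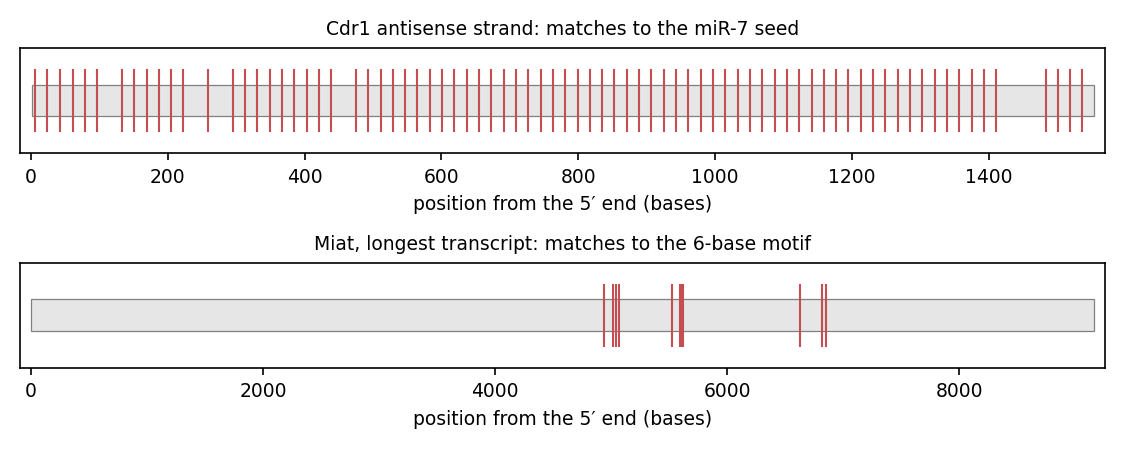
Matches to the miR-7 seed along the strand opposite to Cdr1 (upper panel) and matches to ACTAAC along the longest Miat transcript (lower panel), each red line 1 match, against the position from the 5′ end in bases. The 79 upper matches run from base 6 to base 1537, while the 11 lower matches lie between bases 4942 and 6852.

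Firre (chrX:50555744-50635321, minus strand) is known for a repeated RNA domain that binds the nuclear matrix protein hnRNPU. In its longest transcript of 5555 bases and 20 exons, 41.3% of the 12-base words occurred more than 1 time, a share reached by 0.294% of transcripts. The corresponding shares were 84.3% in Cdr1, 6.48% in Snhg11 and 0.143% in Malat1, against a median of 0.0643% over all transcripts. A Firre stretch of 123 bases that occurs 2 times, from bases 1286 and 3745, is shown because such repeats may bear on read counting. Its first copy is chrX:50595461-50595583 on the minus strand, and the capitals mark the word that occurs 11 times.
Firre: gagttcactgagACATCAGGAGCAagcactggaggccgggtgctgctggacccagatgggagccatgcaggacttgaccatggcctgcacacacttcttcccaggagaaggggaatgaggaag

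The remaining RNAs were Snhg11 (chr2:158375638-158386145, plus strand), a host gene of small nucleolar RNAs, Ftx (chrX:103560907-103623790, minus strand), a gene of the X-inactivation centre that hosts microRNAs, and Gdap10 (chr12:32821872-32826904, plus strand). The longest transcripts of the 8 genes had 1554 to 20771 bases, with GC contents of 42.5% in Malat1 to 55.1% in Miat, against medians of 1487 bases and 47.2% over all transcripts. Apart from Cdr1, whose longest open reading frame had 517 codons, the longest frames had 64 to 137 codons. GENCODE calls Snhg11 protein-coding with a frame of 261 bases, while RefSeq calls it a long noncoding RNA.

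Counts assigned to genes numbered 41334423 in IP 2 and 47567384 in IP 4, against 41385301 in input 2 and 39750468 in input 4. Reads outside annotated features made up 7.31% and 7.54% of records in IP 2 and IP 4, against 14.9% and 13.5% in input 2 and input 4. Levels are given as CPM, counts scaled by TMM-normalised library size, and a floor of 3 counts stood at 0.0660 to 0.0789 CPM. Cbln1, whose regulatory sequence drives the tag, had 99.3 and 68.6 CPM in IP 2 and IP 4, against 11.9 and 8.55 CPM in input 2 and input 4 (edgeR quasi-likelihood test, adjusted p = 1.39e-10). Of 6 general neuron markers 5 were higher in IP and 0 lower, where 23.4% of all tested genes were higher. Their summed level, most of it Snap25 (27037 and 25453 CPM in IP, 10527 and 10908 CPM in input), was 32004 and 29947 CPM in IP, against 13302 and 13759 CPM in input. Of 4 glutamatergic markers 4 were higher, although Slc17a7 and Tbr1 were not called when library sizes alone were used, and 3 GABAergic markers had a median log2 fold change of 0.18.

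Together the 8 RNAs made up 0.145% of gene counts in IP 2 and 0.239% in IP 4, against 2.58% in input 2 and 2.45% in input 4. The Wilson 95% intervals ran from 0.144 to 0.147% in IP 2, 0.237 to 0.240% in IP 4, 2.57 to 2.58% in input 2 and 2.44 to 2.45% in input 4, and cover counting error only. Malat1 made up most of these counts, with 75.8% and 80.8% of them in IP 2 and IP 4 and 86.5% and 86.6% in input 2 and input 4.

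Malat1 had 1197.9 CPM in IP 2 and 2120.7 CPM in IP 4, against 20307 CPM in input 2 and 19465 CPM in input 4. It averaged 1659 ± 653 CPM in IP libraries and 19886 ± 595 CPM in input libraries (SD, n = 2 each). Its log2 fold change of IP over input was -3.58 (SE 0.17), the lowest among the 10455 tested genes that have a gene symbol and a mean of at least 5 CPM. It ranked 45th of all tested genes by mean CPM in IP, and 2nd in input. Neat1, by contrast, was scarce, with 2.13 and 1.64 CPM (81 and 71 counts) in IP 2 and IP 4, against 14.5 and 9.98 CPM (658 and 432 counts) in input 2 and input 4. Its log2 fold change was -2.70 (SE 0.25), the smallest in size of the 8.

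Miat had 24.8 and 26.4 CPM in IP 2 and IP 4, against 216 and 187 CPM in input 2 and input 4, giving a log2 fold change of -2.98 (SE 0.11). Firre had 2.34 and 2.50 CPM in IP 2 and IP 4, against 16.7 and 17.4 CPM in input 2 and input 4, giving a log2 fold change of -2.81 (SE 0.19). In both RNAs the IP libraries lay close together, and the input libraries of Miat differed by 0.21 in size on the log2 scale. Ftx had 2.08 CPM in IP 2 and 3.49 CPM in IP 4, against 22.2 and 18.9 CPM in input 2 and input 4, with a log2 fold change of -2.87 (SE 0.22), so that its IP libraries stood further apart than those of Miat or Firre.

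Snhg11 had 90.4 CPM in IP 2 and 156.7 CPM in IP 4, against 958 and 883 CPM in input 2 and input 4, giving a log2 fold change of -2.90 (SE 0.17). Gdap10 had 0.973 and 1.55 CPM (37 and 67 counts) in IP 2 and IP 4, against 10.3 CPM in each input library (468 and 447 counts), giving a log2 fold change of -3.02 (SE 0.26). Cdr1 had 261 and 311 CPM in IP 2 and IP 4, against 1931 and 1873 CPM in input 2 and input 4, giving a log2 fold change of -2.74 (SE 0.10). In all 8 RNAs both IP libraries lay below both input libraries, which follows from how they were chosen. The Cdr1 row counts reads at that symbol: the strand setting of the counting is not given in the sources used here, so sense reads and reads of the antisense circle cannot be told apart.

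**Figure D2:**
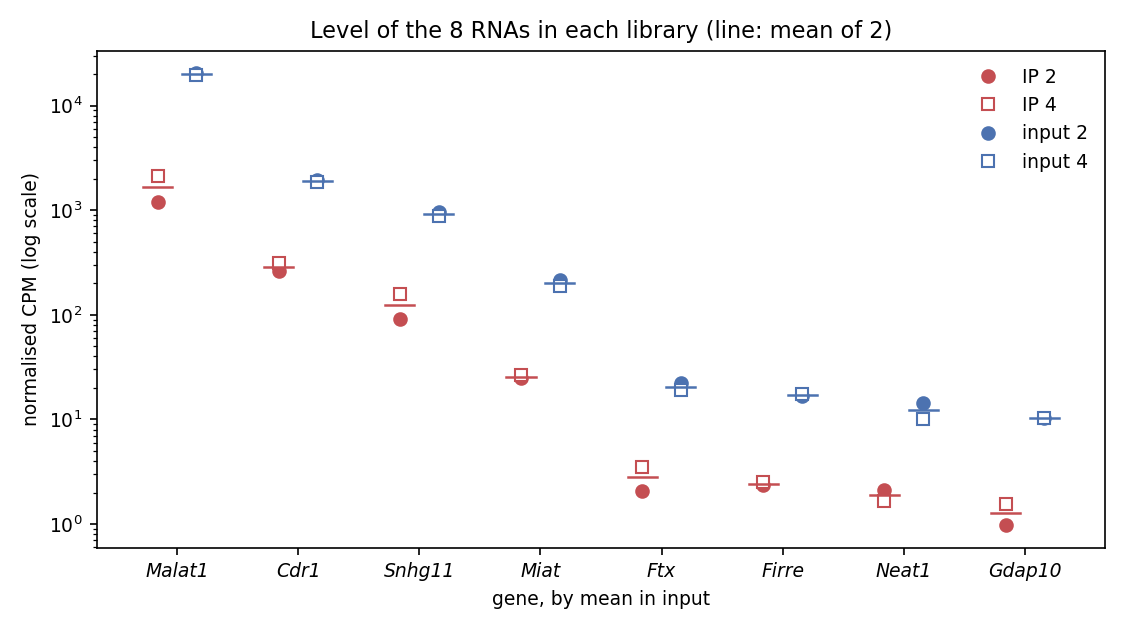
Normalised CPM on a log axis for each RNA in IP 2 and IP 4 (red) and input 2 and input 4 (blue), in order of the mean in input; horizontal lines are means of 2 libraries. Malat1 lies at 1197.9 and 2120.7 CPM in IP and at 20307 and 19465 CPM in input, while Ftx, Firre, Neat1 and Gdap10 lie at 0.973 to 3.49 CPM in IP and 9.98 to 22.2 CPM in input.

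The 8 log2 fold changes spanned -3.58 to -2.70 with a median of -2.88, against a median of -0.04 over all tested genes. By Benjamini-Hochberg adjusted p in edgeR's quasi-likelihood test, 45.8% of all tested genes were called, 22.4% lower and 23.4% higher in IP. With library sizes alone, without TMM factors, the shares were 35.6% lower and 13.0% higher, and the median over all genes moved to -0.29. All 8 were among the genes called lower, and because their own contrast chose them nothing is read from that count. Among the 10455 tested genes with a symbol and at least 5 CPM, 14 genes lay at or below Neat1, the highest of the 8. In this set 31 genes were at least 4-fold lower in IP. With genes named by a sequence identifier included, 35 of 10681 lay at or below Neat1 and 56 were at least 4-fold lower. Malat1 was 13th lowest in that wider set.

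**Figure D3:**
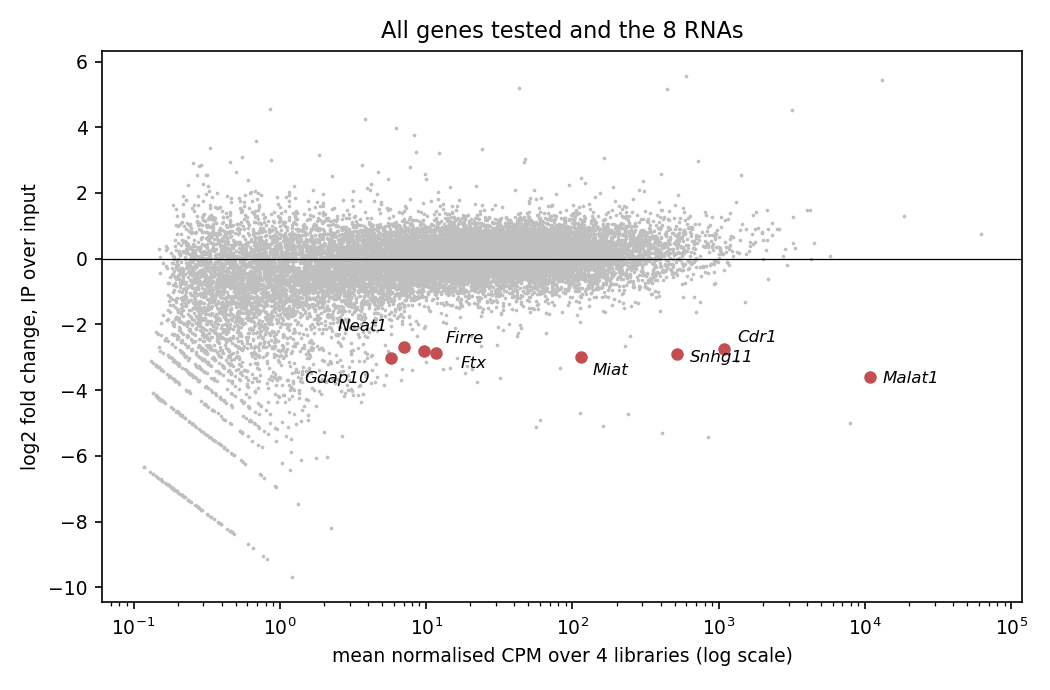
Log2 fold change of IP over input against mean normalised CPM over the 4 libraries (log axis) for all 16600 tested genes (grey) and the 8 RNAs (red). The 8 RNAs lie between -3.58 and -2.70, at levels from that of Gdap10 to that of Malat1, and Malat1 is both the most abundant and the lowest of them.

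The label of abundant RNAs held for Malat1, Cdr1, Snhg11 and Miat, which ranked 2nd, 20th, 84th and 827th of all tested genes by mean CPM in input. Ftx, Firre, Neat1 and Gdap10 ranked 6609th to 8775th. Levels per kb of annotated exon divide by all exon bases of a gene, so they depend on its annotated length and leave out unassigned reads. On this scale Malat1 averaged 238 CPM per kb in IP and 2848 CPM per kb in input. Cdr1 averaged 184 CPM per kb in IP and 1224 CPM per kb in input. Snhg11 followed at 14.5 CPM per kb in IP and 108 in input, then Miat at 2.76 in IP and 21.7 in input. In input, Firre (2.07 ± 0.0580 CPM per kb), Gdap10 (2.06 ± 0.00444) and Ftx (2.01 ± 0.227) did not differ beyond their spread (SD, n = 2 each). Neat1 was lowest per kb at 0.589 ± 0.153, over 20771 exon bases. Without division by length its input mean of 12.2 CPM lay above the 10.3 CPM of Gdap10. In IP the means of these 4 were 0.293 CPM per kb for Firre, 0.252 for Gdap10, 0.273 for Ftx and 0.0908 for Neat1.

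Set within each library number, IP levels were 5.90% of input for Malat1 at number 2 and 10.9% at number 4. For Snhg11 the shares were 9.44% and 17.7%, for Ftx 9.37% and 18.5%, and for Gdap10 9.46% and 15%. They were closer together for Firre (14% and 14.4%), Neat1 (14.7% and 16.5%), Miat (11.5% and 14.1%) and Cdr1 (13.5% and 16.6%). The median share was 10.5% at number 2 and 15.7% at number 4. The labels do not say what a number marks, so the main test did not use the numbers as pairs. Across 16600 genes, same-numbered libraries did not deviate together (r = 0.0481), which cannot show that they are unpaired. Xist, the RNA of the inactive X chromosome, did differ between the numbers in the same direction in both groups.

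For 6 of the 8 RNAs, all but Miat and Neat1, the difference between numbers was larger in size within IP than within input. Malat1 was 1.77-fold, Snhg11 1.73-fold, Ftx 1.67-fold and Gdap10 1.56-fold higher in IP 4 than in IP 2, or 0.82, 0.79, 0.74 and 0.65 on the log2 scale. Among the 10681 tested genes that averaged 5 CPM or more, a difference as high as that of Malat1 was found in 0.346%, of Snhg11 in 0.412%, of Ftx in 0.487% and of Gdap10 in 0.796%. Among tested genes whose mean over the 4 libraries lay within 2-fold of the RNA's own, the shares were 0.694% of 576 genes for Snhg11, 0.700% of 4002 for Ftx and 4.14% of 3287 for Gdap10, while for Malat1 it was 40% of only 5 genes, itself included. The input libraries differed by 0.23 or less in size for the same 4 RNAs. Cdr1 was higher in IP 4 by 0.25, and Miat and Firre by 0.09 each. Neat1 went the other way, with log2 differences of -0.37 for IP 4 minus IP 2 and -0.53 for input 4 minus input 2.

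In all, 7 of the 8 RNAs were higher in IP 4 than in IP 2 (median log2 difference 0.45), and 2 of the 8 higher in input 4 than in input 2 (median -0.09). With genes named by a sequence identifier included, 48 other genes with at least 5 CPM were at least 4-fold lower in IP. Of these, 40 were higher in IP 4 (median 0.23) and 12 in input 4 (median -0.08). Over all 10681 genes, 5310 were higher in IP 4 and 5602 in input 4, with medians of -0.00 and 0.01. Several values differed alongside. Cbln1 had 68.6 and 99.3 CPM in IP 4 and IP 2, and 8.55 and 11.9 CPM in input 4 and input 2. It was thus lower at number 4 in both groups. GABAergic markers summed to 695 and 520 CPM in IP 4 and IP 2, against 690 and 634 CPM in input 4 and input 2. The part of these levels in the difference between IP 4 and IP 2 was not tested. With 2 libraries per group, this difference has no replicate check.

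**Figure D4:**
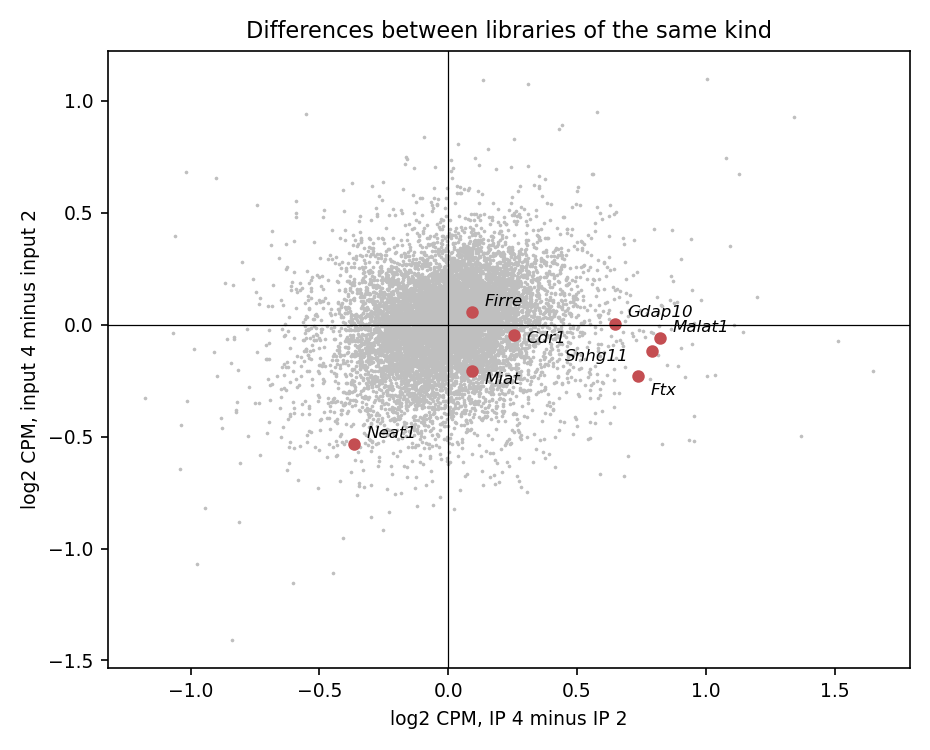
Difference of log2 CPM between IP 4 and IP 2 (horizontal) and between input 4 and input 2 (vertical) for tested genes with at least 5 CPM (grey) and the 8 RNAs (red). Malat1, Snhg11, Ftx and Gdap10 lie at 0.65 to 0.82 on the horizontal axis and at -0.23 to 0.00 on the vertical axis, apart from most genes.

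For each RNA, the gene with the most similar pattern over the 4 libraries was sought among 10111 genes, by Euclidean distance between log2 CPM values centred on their mean. Meg3, a maternally expressed imprinted noncoding RNA, was nearest to Gdap10 (distance 0.272), Ftx (0.323), Snhg11 (0.340) and Malat1 (0.608). Meg3 had 236 and 313 CPM in IP 2 and IP 4, against 2596 and 2169 CPM in input 2 and input 4. Kcnq1ot1, an antisense RNA of an imprinted domain, was nearest to Miat (0.135), with 3.37 and 3.75 CPM in IP and 32.6 and 24.8 CPM in input. Trank1, annotated as protein-coding, was nearest to Cdr1 (0.0983) and Firre (0.174), with 58.0 and 68.4 CPM in IP and 394 and 400 CPM in input. Neat1 was nearest to the pseudogene Tmem181b-ps at a distance of 0.441, and only Malat1 lay further from its nearest gene. These distances rest on 4 libraries and describe the pattern only.

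Other nuclear long noncoding RNAs were also lower in IP. Of 15 tested, 12 fell and 0 rose, with a median log2 fold change of -1.98, against 22.4% of all tested genes lower and a median of -0.04. Besides Meg3 (-3.12, SE 0.12, edgeR adjusted p = 5.96e-13) and Kcnq1ot1 (-3.01, SE 0.18, adjusted p = 2.85e-10), the list included Snhg14, a long RNA of the Prader-Willi domain (-2.10, SE 0.12, adjusted p = 1.15e-10). Peg13, an imprinted noncoding RNA, was an exception at 234 and 251 CPM in IP and 238 and 308 CPM in input, and its log2 fold change of -0.17 was not called. Long noncoding RNAs with known cytoplasmic forms were lower by less. Of 9 tested, 8 fell and 0 rose, with a median of -0.95. They included 1700020I14Rik (-1.49, SE 0.10, adjusted p = 7.52e-10), Gas5, a host of small nucleolar RNAs (-1.12, SE 0.14, adjusted p = 4.11e-06), and Snhg12, another such host (-1.06, SE 0.22, adjusted p = 5.40e-04). The difference between the 2 lists was not tested. The only tested RNA component of a ribonucleoprotein, Rmrp, the RNA of RNase MRP, had a log2 fold change of -1.48 (edgeR adjusted p = 0.0125), which was not called without input 2 (-1.30, adjusted p = 0.140).

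Among genes of at least 5 CPM, with the 8 RNAs left out, GENCODE's long intergenic noncoding class had 34 of 45 lower and 1 higher in IP (median -0.86). Antisense genes had 13 of 17 lower and 0 higher (median -0.72), and processed transcripts 39 of 50 lower and 2 higher (median -0.80). Protein-coding genes had 1890 of 9983 lower and 3542 higher (median 0.14). Over all 10681 tested genes of at least 5 CPM, the 8 RNAs included, 2185 (20.5%) were lower and 3663 higher (median 0.12). A fold change of at least 4-fold lower was reached by 3 of the 45 long intergenic noncoding genes and by 12 of the 9983 protein-coding genes. Over all 10681 genes it was reached by 56.

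The messenger RNAs of proteins known to work with these RNAs had medians near that of all genes. Of 15 genes for paraspeckle proteins, the partners of Neat1, 6 were lower and 2 higher in IP (median -0.07), beside 22.4% lower and 23.4% higher over all tested genes. Ewsr1, an RNA-binding protein, fell by 0.76 on the log2 scale (SE 0.11, edgeR adjusted p = 1.0e-05), while Smarca4, a chromatin remodeller, rose by 0.53 (SE 0.11, adjusted p = 9.63e-04). Of 17 genes for nuclear speckle proteins, the neighbours of Malat1, 5 were lower and 3 higher (median -0.17), beside the same 22.4% and 23.4% over all tested genes. Srsf11, a splicing factor, fell by 0.98 (SE 0.10, adjusted p = 2.69e-07) and the speckle scaffold Son by 0.68 (SE 0.10, adjusted p = 1.29e-05), while the splicing factor U2af2 rose by 0.78 (SE 0.15, adjusted p = 2.64e-04). With library sizes alone, 12 speckle genes were lower and 1 higher, against the shift of the median of all genes to -0.29.

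Of 9 genes for proteins that bind Miat, Firre or the Cdr1 antisense RNA, 2 were lower and 0 higher in IP (median -0.06), a share lower close to the 22.4% over all tested genes. Qk, an RNA-binding protein that recognises ACTAAC-like sites and is abundant in glia, fell by 1.33 (SE 0.09, edgeR adjusted p = 1.94e-09), at 153 and 168 CPM in IP 2 and IP 4, against 406 and 401 CPM in input 2 and input 4. Ago3, an Argonaute protein, fell by 0.63 (SE 0.11, adjusted p = 1.46e-04). The remaining 7 were not called, among them Sf1, which had 115 and 120 CPM in IP and 101 and 99.4 CPM in input, and Hnrnpu, which had 191 and 214 CPM in IP and 226 and 219 CPM in input. Beside the shares of 22.4% lower and 23.4% higher over all tested genes, markers of oligodendrocytes had 4 of 6 lower and 2 higher, astrocytes 1 of 5 lower and 2 higher, microglia 2 of 5 lower and 1 higher, and the 3 of endothelium, with edgeR adjusted p of 0.0964 to 0.416, a median log2 fold change of -0.72 (-0.31 without input 2). Oligodendrocyte markers summed to 1232 and 1261 CPM in IP, against 1599 and 1505 CPM in input, and their part in the lower values of the 8 RNAs was not tested.

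The genes around the 8 RNAs differed from locus to locus. Within 200 kb of any of them, 36 other genes were tested with counts in both groups. Of these, 6 were lower and 10 higher in IP, beside 22.4% lower and 23.4% higher over all tested genes. The 36 genes had a median log2 fold change of -0.05, against -0.04 over all tested genes. The medians were 0.43 over 16 genes around Malat1 and 0.34 over 15 around Neat1, windows that share most of their genes, and -0.15 over 8 around Miat. They were -0.57 over 3 genes around Gdap10, -0.12 over 3 around Snhg11 and -1.02 over 4 around Ftx, and the 1 gene near Cdr1 stood at -0.83. Each of these values lay above the log2 fold change of the RNA at its locus. Since the 8 RNAs were chosen for low values, this order was likely beforehand, and nothing is read from it. Gm6583 near Miat, left out because it had 0 counts in both IP libraries, stood below Miat at -7.15. It had 23 and 14 counts in input 2 and input 4.

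Gdap10 lies inside Nampt, the gene of an enzyme of NAD synthesis, on the same strand and without a shared exon base. Nampt had 62.7 and 55.9 CPM in IP 2 and IP 4, against 37.7 and 37.9 CPM in input 2 and input 4, and so rose by 0.65 (SE 0.11, edgeR adjusted p = 1.10e-04) while Gdap10 had 0.973 and 1.55 CPM in IP and 10.3 CPM in each input library. Frmd8, next to Neat1, was not called at -0.08 (adjusted p = 0.727). Ralgapb, next to Snhg11, was not called at -0.12 (adjusted p = 0.307). Stk26, the nearest tested gene to Firre, was not called at 0.28 (adjusted p = 0.508).

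Ftx and Jpx, another noncoding RNA of the X-inactivation centre, overlap on opposite strands without sharing exon bases. Jpx had 6.84 and 6.94 CPM in IP, against 12.8 and 14.8 CPM in input, and its log2 fold change was -0.998 (SE 0.18, edgeR adjusted p = 1.48e-04). Of 6 tested genes of that centre other than Ftx, 2 were lower and 0 higher (median -0.46), while 22.4% of all tested genes were lower and 23.4% higher. Chic1, a protein-coding gene there, fell by 1.05 (SE 0.10, adjusted p = 1.70e-07), while Rlim, a ubiquitin ligase, had 162 and 165 CPM in IP, against 154 and 155 CPM in input, and was not called. Xist, the lowest neighbour of Ftx, was not called either (-2.68, SE 1.13, adjusted p = 0.0593). It had 0 and 20 counts in IP 2 and IP 4, set against 2 and 132 counts in input 2 and input 4, so both libraries numbered 4 held more of it than those numbered 2. The microRNA genes inside Ftx were barely counted, Mir421 with 0 counts in IP 2 and 2 in IP 4, against 21 in input 2 and 6 in input 4.

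C230004F18Rik, the plus-strand gene that shares exon bases with Cdr1, had 6.68 and 5.76 CPM in IP 2 and IP 4, against 11.4 and 10.7 CPM in input 2 and input 4, and fell by 0.83 (SE 0.19, edgeR adjusted p = 0.00138). Cdr1 itself had 261 and 311 CPM in the IP libraries and 1931 and 1873 CPM in the input libraries. Where genes overlap, reads may have been dropped as ambiguous, and such reads were 1.54% of records in both IP libraries, against 5.07% and 5.09% in input 2 and input 4. GENCODE also places opposite-strand genes over exon bases of Malat1, Miat and Ftx. None of those is a counted name, and whether their reads entered the counts of the 3 RNAs was not tested. Multiply aligned reads were left unassigned by the counting. Whether this affected the counts of Cdr1 and Firre, which hold repeats, was not tested.

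**Figure D5:**
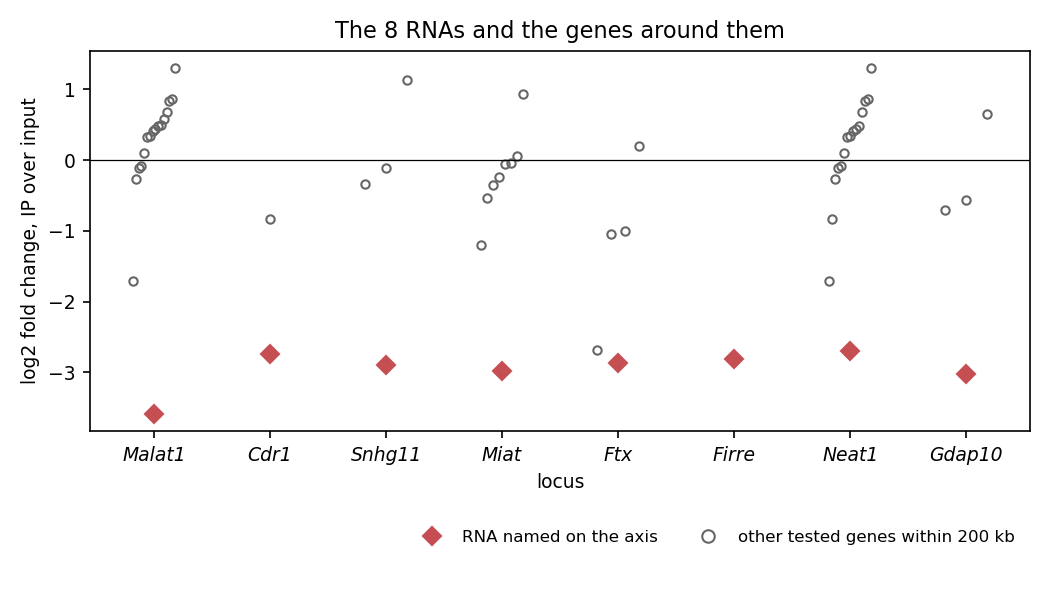
Log2 fold change of IP over input for each RNA (red diamond) and for the other tested genes within 200 kb of it that had counts in both groups (grey circles). The 8 RNAs lie between -3.58 and -2.70, and the neighbours between -2.68 and 1.30; Firre had no tested neighbour in this window.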

How the data were processed

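The authors deposited unnormalised read counts per gene, 1 file per library. The submitters' processing notes name the aligner STAR 2.0.0e, HTSeq for counting, and build mm10. Annotation, strand setting and kit were not given in the sources used here. HTSeq's summary lines were dropped. Reads without a unique alignment were 37.0% and 38.0% of records in IP 2 and IP 4, against 32.1% and 30.7% in input 2 and input 4.

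The main test used edgeR 4.0.16 under R 4.3.3 (TMM, filterByExpr with minimum count 10 and minimum total 15, quasi-likelihood test, two-sided, Benjamini-Hochberg threshold 0.05). The biological coefficient of variation was 12.5%, with 2 residual and 16.8 prior degrees of freedom. Replicates differed by far more than sampling noise (chi-square per degree of freedom 22.5 for IP and 15.2 for input). Tested on simulated data with 16600 genes, the IP and input comparison recovered 52% at a 1.5-fold change, 96% at 2-fold and 100% at 4-fold and at 8-fold (50 genes per size), with 11 false calls. Only these genes, all of at least 5 CPM, were changed there, in random direction, whereas 45.8% of tested genes were called in the data. These rates may therefore not hold for so widespread a difference.

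The 8 RNAs, gene lists and sequence motifs were chosen with earlier results of these data known. Besides the 8, the text names Cbln1, the gene nearest in pattern to each RNA, up to 3 called genes per list with the largest fold change and at least 5 CPM, and overlapping or nearest genes; Peg13, Sf1, Hnrnpu, Rlim and Xist were named after their values were seen. A few genes that this rule takes are not reported here. Of the 32531 names, 23113 matched 1 GENCODE vM21 gene by symbol. The tested gene Gm6583, with 0 counts in IP, was left out of the neighbours. Alternatives were DESeq2 1.42.0, other size factors, other filters, a replicate block, and leaving out each library or Rn45s. Figures were drawn with matplotlib 3.10.9.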

Additional observations from a re-analysis of the deposited data

How the results depend on the processing

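All 8 RNAs were at least 4-fold lower in IP under every alternative run, and their median log2 fold change ranged from -3.15 (without IP 4) to -2.73 (without IP 2). With library sizes alone, 5902 genes were called lower and 2153 higher in IP, 1 paraspeckle gene was higher, 1 speckle gene higher and 12 lower, and 5 of the genes for proteins that bind Miat, Firre or the Cdr1 antisense RNA lower. In that setting the median of all genes moved to -0.29. DESeq2 called 1 gene of the binding proteins higher. Leaving out 1 library at a time gave 5993 to 7597 called genes, 0 to 1 called RNA of ribonucleoproteins (0 without input 2) and 1 to 2 paraspeckle genes higher (1 without input 4). The endothelial marker Flt1 ranged from -0.63 (without input 4) to 0.018 (without input 2, adjusted p = 0.982) on the log2 scale, and was not called in the fit to all libraries. The causes of these moves were not tested, except that leaving out a library leaves fewer samples.

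Over all tested genes, same-numbered libraries did not deviate together (r = 0.0481), which cannot show that they are unpaired. Xist differed between the numbers in the same direction in both groups. With a replicate block, 8351 genes were called, 4037 lower and 4314 higher, 1 gene of the binding proteins was higher, and the median of the 8 RNAs was -2.92.

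Depth limits Neat1 and Gdap10 most, with 71 and 37 counts in their lowest IP library. 2 libraries per group limit every comparison.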
